A study of Mus musculus with 17 samples.

Results

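Chemokine ligands are small secreted or membrane-bound proteins that draw leukocytes along a concentration gradient. Here they were taken as all genes whose symbol begins with Ccl, Cxcl, Cx3cl or Xcl followed by a number, which gave 38 of the 55450 genes in the bulk table. Each ligand acts on G protein-coupled receptors of the matching CCR, CXCR, CX3CR or XCR family, and ligands that share a receptor often lie side by side on a chromosome. Ligands with the ELR motif, such as Cxcl1, attract neutrophils through CXCR2. Ccl2 and Ccl7 attract monocytes through CCR2, and Cxcl12 is the ligand of CXCR4 that holds hematopoietic cells in the bone marrow. Tumor epithelium, fibroblasts and leukocytes all release chemokines, and many of the inducible ones are targets of NF-kB.

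The cells came from 10 female FVB/NJ mice, aged 10 to 12 weeks, that carried the MMTV-PyMT transgene. In this model the mammary tumor virus promoter drives the polyoma middle T oncogene in mammary epithelium and gives mammary tumors that spread. Cells from tumor-bearing lung, bone marrow (BM) and lymph node (LN) were cultured for about a month to enrich cancer cells and sorted for high surface EpCAM with either low or high CD44, giving CD44low and CD44high lines. The mammary fat pad (MFP) group was labelled primary tumor with no CD44 status. All groups therefore shared the strain, the transgene and, per the study's methods, growth in culture, so none was tissue taken fresh from a mouse and the leukocytes and stroma of the organ were not sampled as such. Each of the 7 bulk groups had 2 libraries, described as distinct clonal isolates from different mice, so a group stood for 2 isolates. Lung CD44high (lungH), lung CD44low (lungL) and LN CD44high (lymphH) cells were also measured as single cells, with 1 set of counts each, treated as 1 library. The study's methods describe 2 single-cell replicates per sample, so whether a set pools isolates is not known.

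The RNA of the lung lines did not match their sort. Epcam, whose protein was the gate, was at 0 and 0 TPM (a level scaled to transcript length and to the total of the library) in the lung CD44low libraries and at 0.23 and 0.86 TPM in the lung CD44high libraries, whereas the other 10 libraries held 315 to 941 TPM. Of 10 epithelial marker genes, 6 were at 0 in both lung CD44low libraries and their summed level was 1.74 to 2.42 TPM, against 15.8 to 87.6 TPM in lung CD44high, 2198 to 4481 TPM in LN and BM and 7369 to 8177 TPM in MFP. Summed over 10 fibroblast marker genes, lung CD44low held 4789 to 5230 TPM with 9 of the 10 at 1 TPM or more, lung CD44high held 102.7 to 215.8 TPM, and no other library exceeded 46.2 TPM. The 10 cell cycle genes summed to 4.5 to 72.0 TPM in the lung lines and to 513 to 5257 TPM elsewhere. Over 10 macrophage and leukocyte genes the sums were 22.7 to 268.7 TPM, led by Cd14 with up to 262 TPM in BM CD44high. Lyz2 was at 35.2 and 34.8 TPM in lung CD44low and at no more than 18.5 TPM elsewhere, Cd68 reached 22.4 TPM in MFP, Adgre1 was at 0 in every library and Ptprc reached at most 0.20 TPM. Cd44 RNA did not follow the sort either, at 49.0 and 52.3 TPM in LN CD44high against 147 and 82.7 TPM in LN CD44low, and it was highest in MFP at 400 and 209.7 TPM. In bulk RNA, fewer cells of a type and less RNA per cell cannot be told apart.

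Of the 38 ligands, 16 passed the filter of at least 1 TPM in at least 2 libraries and were tested. Another 11 were at 0 in all 14 libraries, namely Ccl1, Ccl4, Ccl11, Ccl12, Ccl21a, Ccl21b, Ccl22, Ccl24, Ccl26, Ccl27b and Xcl1. The remaining 11 (Ccl3, Ccl8, Ccl19, Ccl28, Cxcl3, Cxcl9, Cxcl11, Cxcl13, Cxcl14, Cxcl15 and Cxcl17) never exceeded 0.69 TPM. Among the low ones, Ccl28, a mucosal chemokine, was above 0 in all 14 libraries but reached only 0.51 TPM. A ligand that entered through its high group had to differ between groups, so the 16 are a description of what these lines express.

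Summed over the 38 ligands, BM CD44high held the most chemokine RNA, at 5257 and 3353 TPM. Lung CD44low followed at 2030 and 2917 TPM and MFP at 1800 and 1152 TPM. The lowest sums were in lung CD44high, at 134.7 and 113.6 TPM. The groups in between were LN CD44high at 842 and 517 TPM, BM CD44low at 574 and 622 TPM, and LN CD44low at 312 and 182 TPM. The leading ligand differed between these groups. Cxcl5 and Cxcl1 together made up 88.9% and 84.4% of the sum in BM CD44high, Cxcl12 alone made up 83.1% and 86.5% in lung CD44low, and Cxcl1 led MFP with 47.9% and 32.2%.

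**Figure D1:**
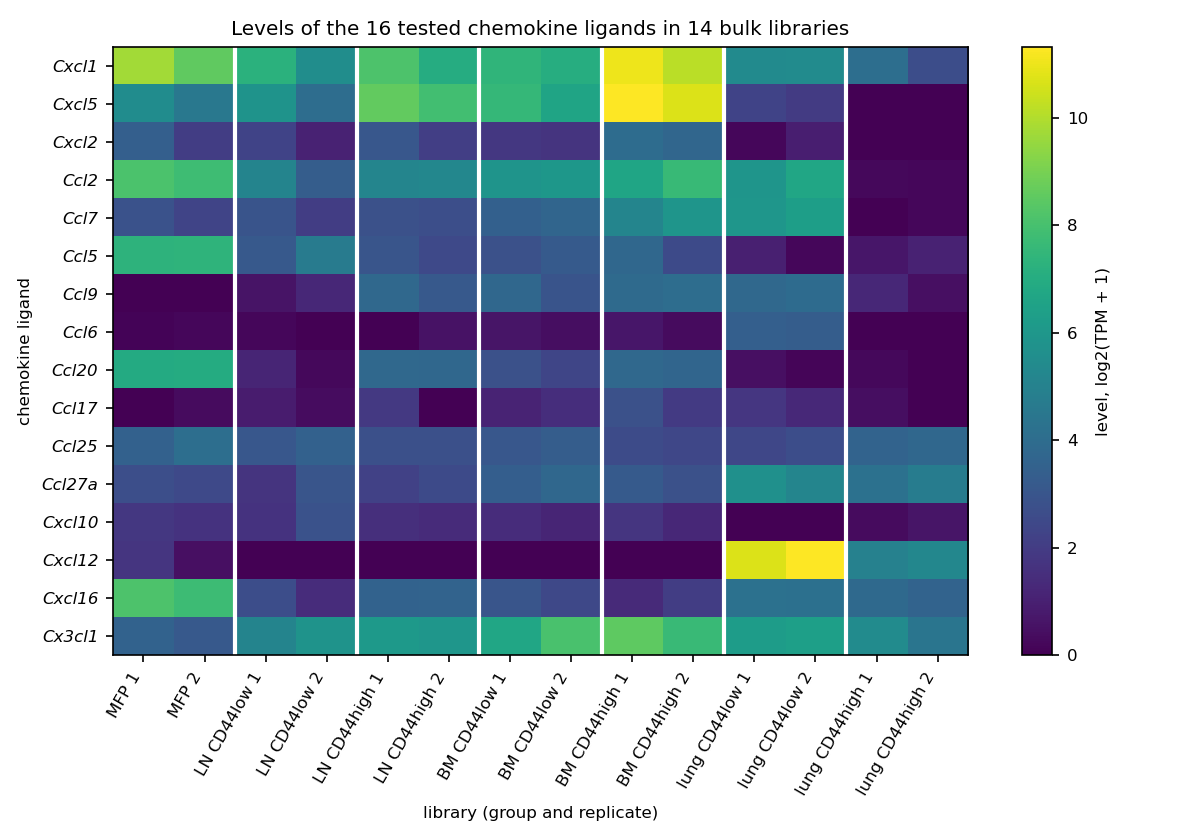
Level of each of the 16 tested chemokine ligands (rows) in each of the 14 bulk libraries (columns, 2 per group), as log2(TPM + 1) on the color scale. Cxcl1 and Cxcl5 are brightest in BM CD44high, Cxcl12 is bright in lung CD44low and dark in every LN and BM library, and Ccl5, Ccl20 and Cxcl16 are brightest in MFP.

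Neutrophil-attracting ligands lie in a cluster of 5 genes on chromosome 5 (mm10, 90759360 to 90905938, GENCODE vM21), in the order Cxcl5, Cxcl3, Cxcl15, Cxcl1 and Cxcl2. Upstream sequence is shown for the 4 of them with a window in the promoter table used, because Cxcl1 and Cxcl2 were expressed in these lines while their neighbors Cxcl3 and Cxcl15 stayed near 0. Each is the 120 bases before the RefSeq transcription start on the plus strand of GRCm38.p6 (the C57BL/6J reference, not the FVB/NJ genome of these mice), at chr5:90891125-90891244 for Cxcl1, chr5:90903779-90903898 for Cxcl2, chr5:90785981-90786100 for Cxcl3 and chr5:90794414-90794533 for Cxcl15. Capitals mark letters that fit the kB motif, the kind of site that NF-kB binds, searched on both strands as GGGA and TTCC with any 2 bases between them. Overlapping matches on the 2 strands were joined.
Cxcl1: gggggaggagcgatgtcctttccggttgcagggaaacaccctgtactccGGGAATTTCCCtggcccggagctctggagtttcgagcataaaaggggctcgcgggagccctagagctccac
Cxcl2: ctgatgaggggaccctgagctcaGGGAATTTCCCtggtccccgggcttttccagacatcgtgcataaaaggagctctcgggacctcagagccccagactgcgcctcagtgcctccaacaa
Cxcl3: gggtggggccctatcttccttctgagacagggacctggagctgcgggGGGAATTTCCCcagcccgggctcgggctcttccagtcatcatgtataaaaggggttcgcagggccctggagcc
Cxcl15: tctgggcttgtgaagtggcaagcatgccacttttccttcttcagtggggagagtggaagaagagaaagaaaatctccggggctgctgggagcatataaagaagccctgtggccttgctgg
Cxcl1, Cxcl2 and Cxcl3 held the same 11 letters, GGGAATTTCCC, starting 71, 97 and 73 bases before the transcription start. Those 11 letters occurred on either strand in 14 of 32851 mouse promoter windows of 300 bases (250 before to 50 after the start), or 0.0426%, and the shorter motif in 1.47%. Of the 27 ligands with a window in the table, 5 held the motif, namely Cxcl1, Cxcl2, Cxcl3, Cxcl10 and Ccl1. A match is a description of letters only: Cxcl3 carried it and did not exceed 0.39 TPM, and Cxcl15 without it did not exceed 0.37 TPM.

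Cxcl1 (chr5:90891241-90893115) was at 2119 and 1146 TPM in BM CD44high, 862 and 371 TPM in the MFP libraries, 283 and 127 TPM in LN CD44high, 167 and 132 TPM in BM CD44low, and 151 and 45.8 TPM in LN CD44low. It was at 41.9 and 42.6 TPM in lung CD44low and at 15.9 and 5.33 TPM in lung CD44high. The BM CD44high libraries lay above all others, the 4 lung libraries lay below all others, and the MFP libraries overlapped none. By limma on log2(TPM + 1), with p adjusted by Benjamini-Hochberg over 15348 genes, a difference was called when it exceeded 2 on the log2 scale with an adjusted p under 0.05. Cxcl1 was lower than in MFP in LN CD44low (log2 difference -2.75, SE 0.68, adjusted p = 0.0232), lung CD44low (-3.71, SE 0.68, adjusted p = 0.00158) and lung CD44high (-5.78, SE 0.68, adjusted p = 0.000134). The LN CD44low call was lost without LN CD44low replicate 2 (limma adjusted p = 0.154), without MFP replicate 1 (0.173) and without the lung libraries (0.0558). In BM CD44high the level was 10.5-fold that of BM CD44low on the log2(TPM + 1) scale (3.39, SE 0.68) and did not pass (adjusted p = 0.158).

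Cxcl5 (chr5:90759360-90761624), the neighboring CXCR2 ligand, spanned the widest range of the ELR ligands. BM CD44high held 2555 and 1685 TPM, LN CD44high 385 and 234 TPM, and BM CD44low 184 and 96.9 TPM. LN CD44low held 55.9 and 15.6 TPM, MFP 43.8 and 22.3 TPM, and lung CD44low 3.8 and 2.94 TPM. Both lung CD44high libraries were listed at 0. Against MFP it was higher in BM CD44high by 6.01 (SE 0.57, limma adjusted p = 5.95e-05), in LN CD44high by 3.22 (adjusted p = 0.00301) and in BM CD44low by 2.06 (adjusted p = 0.0266). It was lower in lung CD44low by -2.89 (adjusted p = 0.00241) and also called lower in lung CD44high (adjusted p = 0.000107). The BM CD44low call was lost without BM CD44low replicate 1 (adjusted p = 0.105), without MFP replicate 2 (0.177) and without the lung libraries (0.0769). Unlike Cxcl1, it was not high in MFP, where Cxcl1 exceeded it in both libraries.

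Cxcl2 (chr5:90903871-90905938), the third expressed member of the cluster, was low throughout. It was at 15.2 and 12.4 TPM in BM CD44high, 9.88 and 3.21 TPM in the MFP libraries, 7.33 and 3.24 TPM in LN CD44high, 3.87 and 1.13 TPM in LN CD44low, 2.58 and 2.21 TPM in BM CD44low, and 0.14 and 0.91 TPM in lung CD44low, and was listed at 0 in lung CD44high. BM CD44high held the highest values and the lung libraries the lowest, as for Cxcl1. The difference from MFP was called for lung CD44low (-2.20, SE 0.54, limma adjusted p = 0.00836) and lung CD44high (adjusted p = 0.00314). The former was lost without lung CD44low replicate 1 (adjusted p = 0.0756) and without MFP replicate 1 (0.0769).

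**Figure D2:**
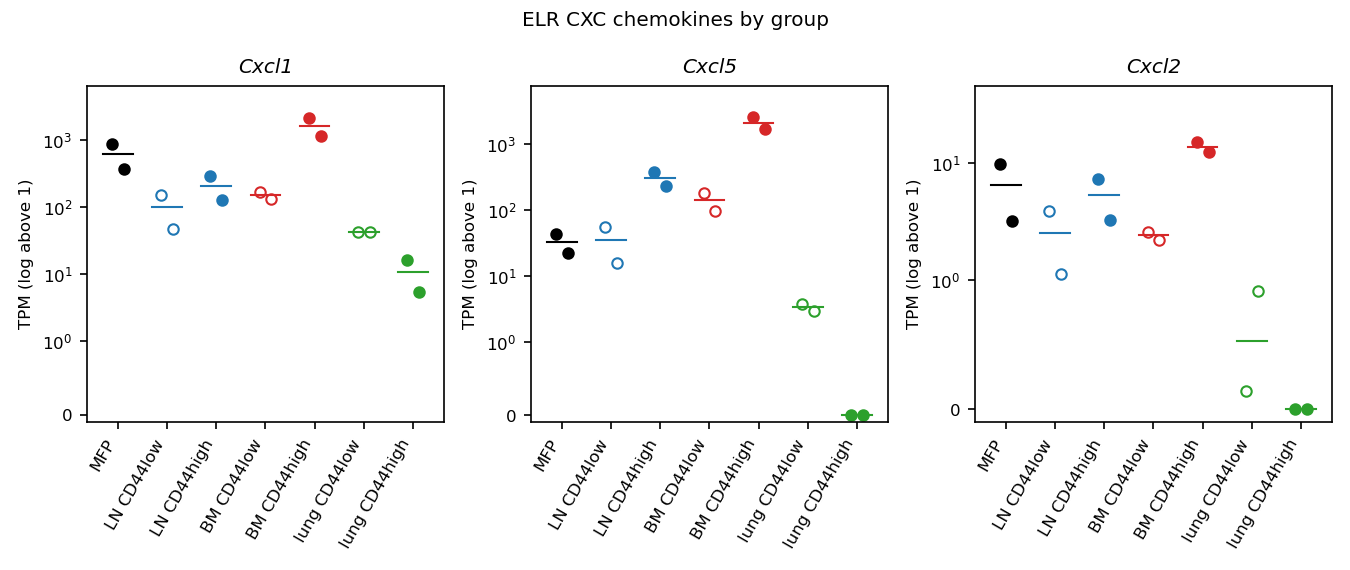
TPM of Cxcl1, Cxcl5 and Cxcl2 in each library (points, 2 per group, on an axis that is logarithmic above 1 TPM), with the group mean as a line. Open points are CD44low lines, filled points CD44high lines or MFP, and all 3 genes are highest in BM CD44high and lowest in the lung lines.

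Ccl2, the main monocyte attractant (chr11:82035571-82037453), was highest in MFP at 279.8 and 219.6 TPM. BM CD44high held 101 and 196 TPM, lung CD44low 58.9 and 102 TPM, BM CD44low 56.3 and 61.9 TPM, LN CD44high 34.5 and 36.5 TPM, and LN CD44low 33.1 and 8.98 TPM. Lung CD44high was nearly without it, at 0.18 and 0.16 TPM. All libraries lay below both MFP libraries, and lung CD44high lay far below the rest. By limma it was lower than in MFP in LN CD44low (-3.75, SE 0.52, adjusted p = 0.000937), LN CD44high (-2.77, adjusted p = 0.0042), BM CD44low (-2.05, adjusted p = 0.0183) and lung CD44high (-7.73, adjusted p = 3.11e-06). The BM CD44low call was lost without either replicate of BM CD44low (-1.98 and -2.12) or of MFP (-1.88 and -2.23), with adjusted p of 0.0497, 0.056, 0.108 and 0.065.

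Ccl7 (chr11:82045712-82047525), a second CCR2 ligand 8.26 kb downstream of Ccl2, had another order. Lung CD44low held 61.6 and 80.6 TPM and BM CD44high 34.5 and 59.1 TPM, above BM CD44low at 9.98 and 11.9 TPM. LN CD44low at 6.72 and 3.13 TPM, LN CD44high at 6.06 and 5.58 TPM and MFP at 6.23 and 4.05 TPM overlapped. Lung CD44high held 0 and 0.16 TPM. Relative to MFP, Ccl7 was higher in lung CD44low (3.56, SE 0.37, limma adjusted p = 3.74e-05) and BM CD44high (2.93, adjusted p = 0.000367) and lower in lung CD44high (-2.49, adjusted p = 0.00061). The other 4 genes of this cluster, Ccl11, Ccl12, Ccl8 and Ccl1, were at 0 or at most 0.27 TPM.

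Ccl5 (chr11:83525778-83530518), which attracts T cells and monocytes, was highest in the primary tumor. It was at 159 and 162 TPM in the MFP libraries, 8.07 and 25.1 TPM in LN CD44low, 6.98 and 4.64 TPM in LN CD44high, 5.96 and 8.16 TPM in BM CD44low, 12.8 and 4.83 TPM in BM CD44high, 1.01 and 0.15 TPM in lung CD44low, and 0.62 and 1.10 TPM in lung CD44high. Every other library lay below both MFP libraries, and all 6 groups were called lower by limma, by -3.39 (SE 0.55, adjusted p = 0.00248, LN CD44low) to -6.73 (SE 0.55, adjusted p = 6.44e-06, lung CD44low).

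Ccl9 and Ccl6, ligands of CCR1, lie 9.25 kb apart in the same cluster and had other patterns. Ccl9 was listed at 0 in both MFP libraries, at 0.53 and 1.37 TPM in LN CD44low and at 1.41 and 0.37 TPM in lung CD44high. It was at 13.3 and 7.98 TPM in LN CD44high, 12.7 and 6.61 TPM in BM CD44low, 14.1 and 15.4 TPM in BM CD44high, and 13.2 and 14.7 TPM in lung CD44low. These last 4 groups were called higher than MFP (limma adjusted p of 0.000238, 0.000302, 9.39e-05 and 3.63e-05). Ccl6 was at 9.88 and 9.02 TPM in lung CD44low and at no more than 0.59 TPM in any other library. Only the lung CD44low libraries took it past the filter, so its calls there, including 1 of the 6 higher ligands in that group (3.21, SE 0.22, limma adjusted p = 1.65e-06), follow from how it entered and are a description.

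Ccl20 (chr1:83116766-83119167), the CCR6 ligand made by epithelia, was also highest in MFP. It was at 121.9 and 122.4 TPM in the MFP libraries, 13.2 and 12.9 TPM in LN CD44high, 13.3 and 12 TPM in BM CD44high, and 5.95 and 4.10 TPM in BM CD44low. LN CD44low held 1.28 and 0.18 TPM, lung CD44low 0.36 and 0.10 TPM, and lung CD44high 0.19 and 0 TPM. In LN and BM the CD44high libraries lay above the CD44low libraries. All 6 groups were lower than MFP, by -3.13 (SE 0.33, limma adjusted p = 0.000143, LN CD44high) to -6.82 (SE 0.33, adjusted p = 4.27e-07, lung CD44high).

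The other ligands of CCR4, CCR9 and CCR10 were at lower levels. Ccl27a, a ligand of CCR10, was at 50.9 and 34.9 TPM in lung CD44low and 17.8 and 25.6 TPM in lung CD44high, above the other 10 libraries at 2.21 to 12.8 TPM, and was higher than in MFP in lung CD44low (2.83, SE 0.42, limma adjusted p = 0.00046). Ccl27a has a close copy, Ccl27b, so how reads were split between them is uncertain. Ccl17, a CCR4 ligand, was highest in BM CD44high at 6.09 and 2.76 TPM against 0 and 0.27 TPM in MFP (2.20, SE 0.54, adjusted p = 0.0148), a call lost without BM CD44high replicate 1 (0.11), MFP replicate 1 (0.088) or MFP replicate 2 (0.054). Ccl25, the CCR9 ligand, stayed between 4.34 and 15.8 TPM and was called in none of the comparisons. Of the interferon-inducible CXCR3 ligands Cxcl9, Cxcl10 and Cxcl11, only Cxcl10 was tested, reached at most 6.23 TPM (LN CD44low replicate 2), and was not called.

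Cxcl12 (chr6:117168535-117181367) separated the lung lines from the rest. It was at 1687 and 2522 TPM in lung CD44low and 30.0 and 36.2 TPM in lung CD44high. MFP held 2.38 and 0.40 TPM, and all 8 LN and BM libraries were at 0 except BM CD44low replicate 2 at 0.01 TPM. Against MFP it was called higher in both lung groups (9.89 in CD44low and 3.97 in CD44high, SE 0.39), but only the lung lines took it past the filter, so these calls are a description. The fibroblast markers given above followed the same order of groups, high in lung CD44low, intermediate in lung CD44high and low elsewhere, and their part in the Cxcl12 level was not tested.

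Cxcl16 and Cx3cl1 are made as transmembrane proteins that can be shed, and moved in opposite directions against MFP. Cxcl16 (chr11:70453983-70459984), the CXCR6 ligand, was at 284 and 216 TPM in the MFP libraries, 17.8 and 17.1 TPM in lung CD44low, 13.4 and 11.3 TPM in lung CD44high, 10.7 and 11.3 TPM in LN CD44high, 6.80 and 4.50 TPM in BM CD44low, 5.41 and 1.68 TPM in LN CD44low, and 1.51 and 3.17 TPM in BM CD44high. It was called lower in all 6 groups, by -3.75 (SE 0.41, limma adjusted p = 5.31e-05, lung CD44low) to -6.26 (SE 0.41, adjusted p = 5.94e-06, BM CD44high). Cx3cl1 (chr8:94772009-94782427), the CX3CR1 ligand also called fractalkine, was lowest in MFP at 10.9 and 8.04 TPM. It was at 368 and 203 TPM in BM CD44high, 102 and 268 TPM in BM CD44low, 76.6 and 82.5 TPM in lung CD44low, 66.4 and 60.1 TPM in LN CD44high, 33.4 and 54.8 TPM in LN CD44low, and 43.2 and 19.8 TPM in lung CD44high. Every library exceeded both MFP libraries, and 5 groups were called higher, by 2.08 (SE 0.50, limma adjusted p = 0.0209, LN CD44low) to 4.73 (SE 0.50, adjusted p = 0.000122, BM CD44high), while lung CD44high did not pass (1.55, adjusted p = 0.0354). The LN CD44low call was lost without LN CD44low replicate 2 (adjusted p = 0.125), MFP replicate 1 (0.0699) or MFP replicate 2 (0.129).

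**Figure D3:**
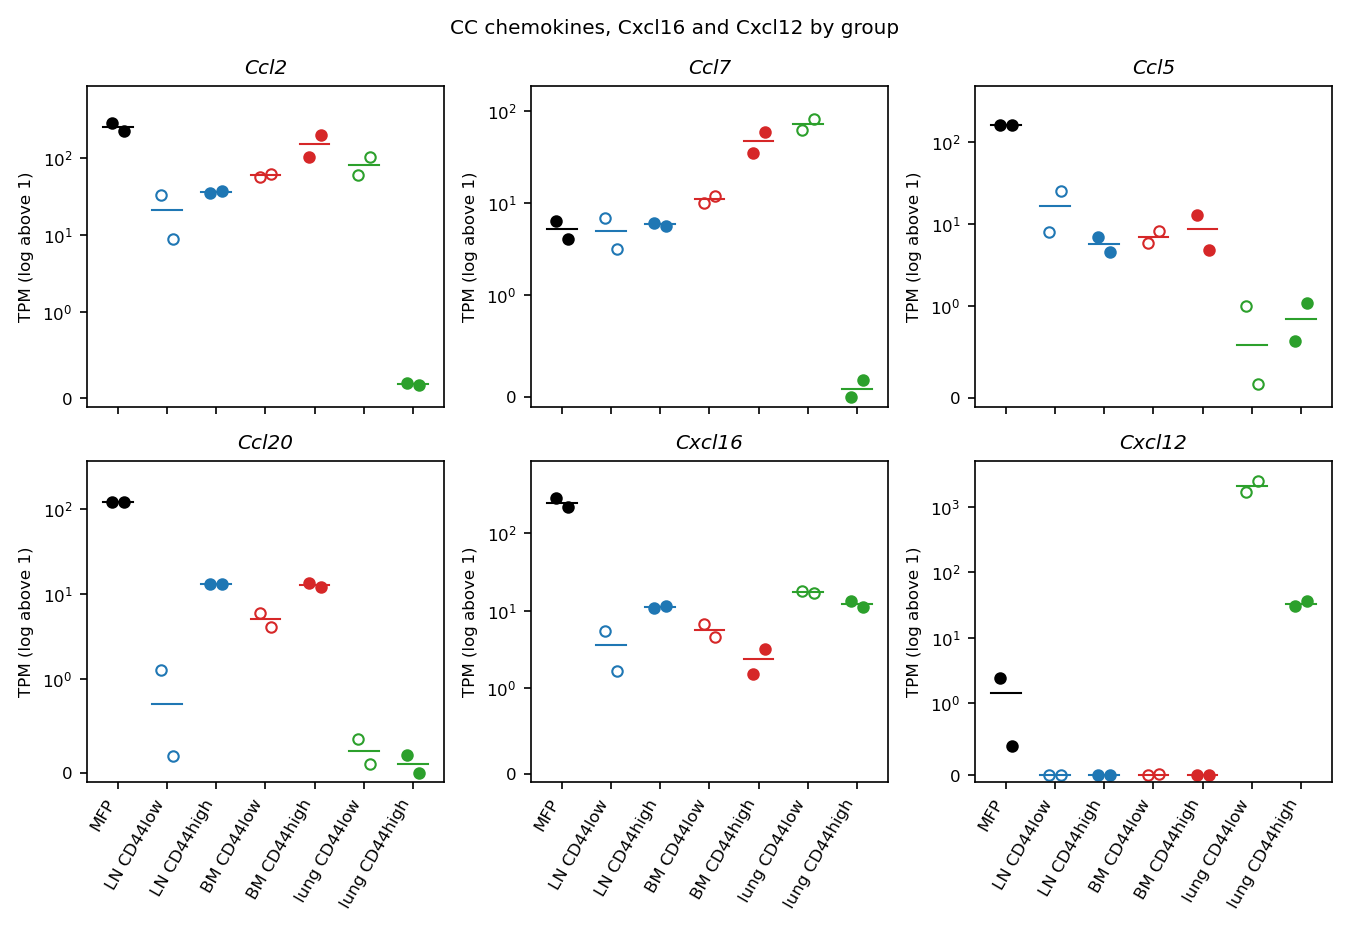
TPM of Ccl2, Ccl7, Ccl5, Ccl20, Cxcl16 and Cxcl12 in each library (points, 2 per group, on an axis that is logarithmic above 1 TPM), with the group mean as a line. Open points are CD44low lines and filled points CD44high lines or MFP. Ccl5, Ccl20 and Cxcl16 are highest in MFP, Ccl2 and Ccl7 drop to 0.18 TPM or less in lung CD44high, and Cxcl12 is at or near 0 outside lung and MFP.

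The first question of the design was how the lines from each organ differed from the primary tumor. The 6 comparisons share the 2 MFP libraries, so a low or high value there enters all of them. In LN CD44low, 5 of the 16 ligands were lower than in MFP and 1 was higher, where 2.72% and 2.07% of all 15348 genes were called lower and higher. In LN CD44high, 4 were lower and 3 higher (background 3.68% and 2.44%). In BM CD44low, 4 were lower and 3 higher (3.17% and 3.99%), and in BM CD44high 3 were lower and 5 higher (4.03% and 3.64%). In lung CD44low, 6 were lower and 6 higher (7.62% and 11.2%), and in lung CD44high 8 were lower and 1 higher (8.03% and 5.42%). The higher ones include Cxcl12 in both lung groups and Ccl6 in lung CD44low, which only lung libraries took past the filter. Ccl5, Ccl20 and Cxcl16 were lower in all 6 groups, and no ligand was higher in all 6. The epithelial markers Krt14 and Cldn4 were lower in all 6 as well, and Cldn7 was at 428 and 321 TPM in MFP and at most 0.65 TPM elsewhere. Others on that list did not all follow. Epcam was at 941 and 820 TPM in LN CD44high against 837 and 725 TPM in MFP. Cldn3 was at 431 to 808 TPM in LN and BM against 983.5 and 958 TPM in MFP. The part of these markers in the ligand differences was not tested. The median absolute log2 difference of the 16 was 1.0 to 3.09 across the 6 comparisons, against 0.45 to 0.87 for all genes tested. After median-ratio scaling the median of all genes rose by 0.02 to 0.37 in these comparisons and the split of calls over all genes moved from 375 higher and 565 lower to 511 and 361 in LN CD44high and from 558 and 619 to 730 and 395 in BM CD44high. Of the called ligands, 1 was lost there, Ccl2 in BM CD44low (-1.76).

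The second question was how CD44high differed from CD44low lines within an organ. In LN, 3 ligands were higher in CD44high, where 0.117% of all genes were called higher, and none of the 16 was lower (0.0912%). These were Ccl20 (3.10, SE 0.33, limma adjusted p = 0.00382), Ccl9 (2.57, SE 0.40, adjusted p = 0.0356) and Cxcl5 (3.29, SE 0.57, adjusted p = 0.0497). In BM, Cxcl5 was the 1 ligand called higher (3.95, SE 0.57, adjusted p = 0.0322, background 0.0521%), and none was lower (0.0521%). At an unadjusted p under 0.05 there were 4 ligands in LN and 8 in BM, where Ccl25 and Cxcl16 were the lower ones. The share of all genes at that looser threshold is not given here, so no excess is read from these counts. In both organs each CD44high library exceeded each CD44low library for Ccl2, Ccl9, Ccl20 and Cxcl5. That was also the case for Cxcl1, Cxcl2, Ccl7 and Ccl17 in BM and for Cxcl16 and Cx3cl1 in LN. The reverse, each CD44high library below each CD44low library, was seen for Ccl5, Ccl25 and Cxcl10 in LN and for Ccl25, Cxcl16 and Ccl27a in BM. The share of all genes that separate in this way is not given here, so these orders only describe the libraries. In LN CD44low the libraries stood apart from each other, with cell cycle genes at 3794 TPM in replicate 1 and 513 TPM in replicate 2 against 4621 and 4780 TPM in LN CD44high, and Il33 at 0.38 and 36.8 TPM. Without replicate 2, Ccl20 and Ccl9 were still called and Cxcl5 was not (2.40, limma adjusted p = 0.0881). The part of the cell cycle difference in these calls was not tested. Neutrophil markers summed to 329 and 40.5 TPM in BM CD44high against 13.4 and 22.5 TPM in BM CD44low, almost all of it S100a8 (325 and 39.5 TPM), while Mpo, Ly6g, Retnlg, Ngp and S100a9 were at 0 in both BM CD44high libraries. Camp was at 3.63 and 0.83 TPM there against 0.23 and 0.14 TPM in BM CD44low, and Cd14 at 262 and 116 TPM against 99.0 and 70.2 TPM. Their part in the ligand levels was not tested.

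Most of these LN and BM calls changed with the settings. Without the lung libraries, which are not part of either comparison but enter the shared spread, Ccl20 in LN was the only ligand still called (limma adjusted p = 0.0419). The adjusted p was then 0.135 for Ccl9 and 0.232 for Cxcl5 in LN, and 0.211 for Cxcl5 in BM. With a pseudocount of 0.1 TPM none of the 3 LN ligands passed limma (adjusted p = 0.055 for Ccl20, 0.0615 for Cxcl5 and 0.0674 for Ccl9). With 1 library left out in turn, Ccl20 was lost without LN CD44high replicate 1 (limma adjusted p = 0.0566). Ccl9 in LN was lost in 9 of 14 such fits, all but those without LN CD44low replicate 2, either BM CD44low replicate or either lung CD44high replicate (adjusted p up to 0.25). Cxcl5 was lost in 11 of 14 in LN, all but those without LN CD44low replicate 1 or a BM CD44low replicate (up to 0.318), and in 11 of 14 in BM, all but those without BM CD44low replicate 1 or an LN CD44low replicate (up to 0.269). Median-ratio scaling changed the split of calls over all genes in LN from 18 higher and 14 lower to 27 and 12.

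In lung the called ligands were lower in CD44high. By limma, none of the 16 was higher in CD44high (2.49% of all genes were) and 7 were lower (8.8%). An unadjusted p under 0.05 was reached by 11, with no share of all genes at that threshold given. Among these 11, Ccl25 was the only higher one, at 11.1 and 12.9 TPM against 4.38 and 5.40 TPM (1.15, limma adjusted p = 0.0126). The 7 were Ccl2, Ccl6, Ccl7, Ccl9, Cxcl1, Cxcl5 and Cxcl12. The log2 differences were -6.07 for Ccl2 (SE 0.52, limma adjusted p = 1.32e-05), -6.05 for Ccl7 (SE 0.37, adjusted p = 1.16e-06), -5.92 for Cxcl12 (SE 0.39, adjusted p = 1.85e-06), -3.04 for Ccl9 (SE 0.40, adjusted p = 0.00033) and -2.06 for Cxcl1 (SE 0.68, adjusted p = 0.043). Cxcl5 was listed at 0 in lung CD44high (limma adjusted p = 0.0185). Ccl6, also at 0 there, passed the filter only through lung CD44low, so its place among the 7 is a description. Cxcl1 was lost without either BM CD44high replicate (0.0527 each), either lung CD44low replicate (0.159 and 0.161) or lung CD44high replicate 2 (0.257), and Cxcl5 without any of the 4 lung libraries (0.0724 to 0.111). The fibroblast markers were also lower in lung CD44high, with sums of 102.7 to 215.8 TPM against 4789 to 5230 TPM. Other markers were higher there by limma, Krt8 (5.26 and 27.8 TPM against 0 and 0), Krt18 (10.1 and 58.9 TPM against 1.42 and 2.11 TPM) and Cd14 (42.4 and 42.9 TPM against 10.1 and 6.69 TPM), while S100a8 was at 15.9 and 135.8 TPM against 5.56 and 5.25 TPM with no call. On the same lists, Krt14, Cdh1, Cldn3, Cldn4 and Cldn7 were at 0.22 TPM or less in all 4 lung libraries. Epcam was at 0.23 and 0.86 TPM against 0 and 0. Lyz2 went the other way, at 6.15 and 18.5 TPM against 35.2 and 34.8 TPM. The lung CD44high libraries also stood apart from each other in cell cycle genes, at 4.5 and 72.0 TPM. The part of these genes in the ligand differences was not tested.

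**Figure D4:**
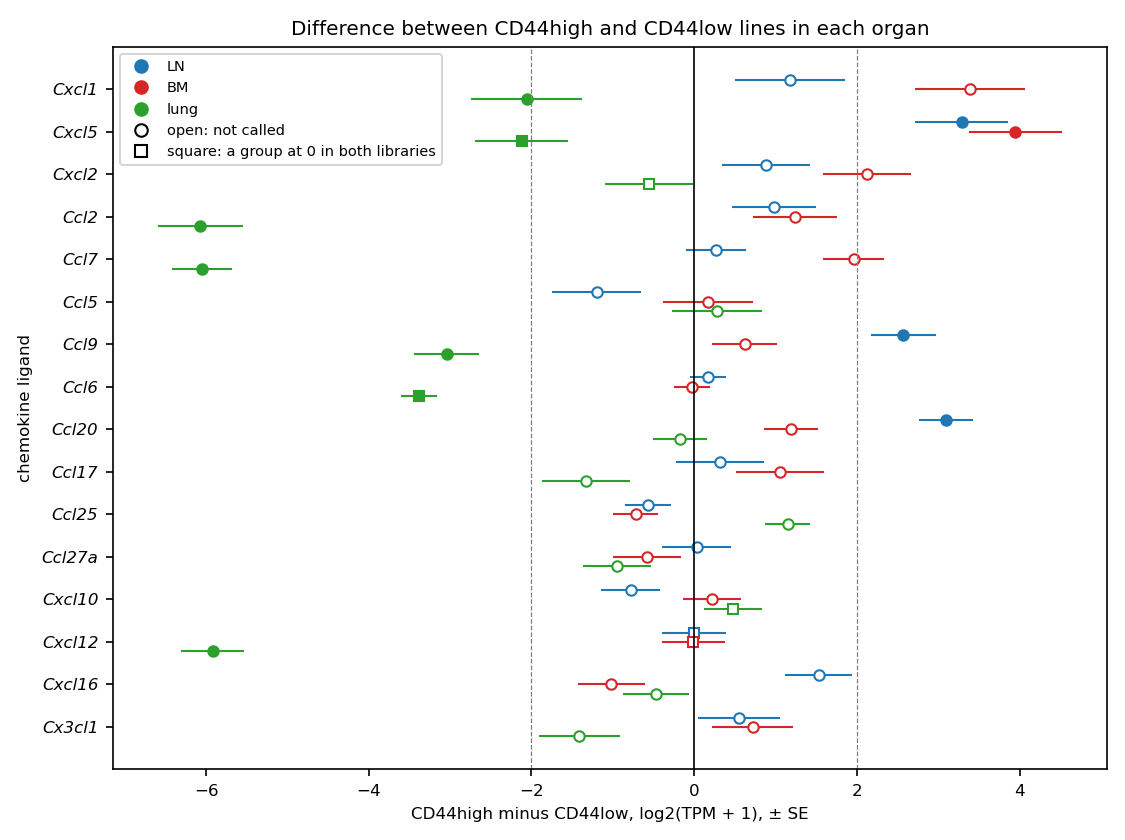
Difference between CD44high and CD44low lines for each tested ligand in LN, BM and lung, on the log2(TPM + 1) scale with its standard error from limma (2 libraries per group). Filled symbols were called, and squares mark a group at 0 in both libraries. The 7 called lung ligands lie left of -2, and the called LN and BM ligands lie right of 2.

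Tested directly, the CD44 difference in lung was lower than that in LN for 9 ligands (10.4% of all genes were called in either direction), Ccl2, Ccl6, Ccl7, Ccl9, Ccl20, Cxcl1, Cxcl5, Cxcl12 and Cxcl16, and lower than that in BM for 8 (8.66%), Ccl2, Ccl6, Ccl7, Ccl9, Cxcl1, Cxcl2, Cxcl5 and Cxcl12. Cxcl12 was at or near 0 and Ccl6 at 0.59 TPM or less in LN and BM, so their interactions repeat the lung difference, and for Ccl6, which only lung CD44low took past the filter, they are a description. Ccl20 was at 0.36 TPM or less in all 4 lung libraries, so its interaction repeats the LN difference. For Ccl2 the 2 differences of differences were -7.05 (SE 0.73, limma adjusted p = 9.76e-05) and -7.31 (SE 0.73, adjusted p = 8.02e-05). Cxcl16 against LN was lost in 9 of 14 fits without 1 library, all but those without a BM library or LN CD44low replicate 1 (adjusted p up to 0.109). Cxcl1 against LN was lost without either BM CD44high replicate, LN CD44low replicate 2, LN CD44high replicate 1, either lung CD44low replicate or lung CD44high replicate 2 (up to 0.14), and Cxcl2 against BM without any BM or lung library (up to 0.154). Between BM and LN, limma called the CD44 difference of no ligand (0.117% of genes called). With an unadjusted p under 0.05 there were 5 of 16 ligands, and no share of all genes at that threshold is given. Averaged over the 3 organs, none of the 16 passed both thresholds (1.02% of all genes did). Again with no share of all genes to set beside them, 7 of 16 ligands had an unadjusted p under 0.05. Of these, Cxcl5 (1.71), Ccl20 (1.38) and Cxcl2 (0.81) were higher in CD44high, and Cxcl12 (-1.98), Ccl2 (-1.28), Ccl7 (-1.27) and Ccl6 (-1.08) were lower. With the lung libraries left out, so over LN and BM, Ccl20 was called (2.15, SE 0.24, adjusted p = 0.0348).

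The third question was how the organs differed from each other, with both CD44 states averaged. BM was higher than LN for Cxcl5 (2.46, SE 0.40, limma adjusted p = 0.014) and Cx3cl1 (2.01, SE 0.35, adjusted p = 0.0198), where 0.345% of all genes were called higher, and lower for none (0.0521%). At an unadjusted p under 0.05 there were 9 of 16, but the share of all genes at that threshold is not given here. Neither Cxcl5 nor Cx3cl1 passed without the lung libraries (limma adjusted p = 0.0845 and 0.0704). Cxcl5 was also lost without BM CD44high replicate 1 (0.0641) or LN CD44high replicate 2 (0.069), and Cx3cl1 without BM CD44low replicate 2 (log2 difference 1.67), BM CD44high replicate 1 (0.0839), LN CD44low replicate 1 (0.0692), LN CD44high replicate 1 (0.0603) or 2 (0.0886), or lung CD44low replicate 1 (0.0526) or 2 (0.0524). Of the neutrophil markers, S100a8 was at 13.1 to 325 TPM in BM and 0 to 6.36 TPM in LN, while Mpo and Retnlg were at 0 in both. Their part in the ligand differences was not tested.

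Lung was higher than LN and BM together for Ccl27a (2.14, SE 0.26, limma adjusted p = 6.82e-05), where 7.13% of all genes were called higher. Cxcl12 was called too, but it passed the filter only through the lung libraries, with LN and BM at or near 0, so that call is a description. Lung was lower for 6 ligands, Ccl2, Ccl5, Ccl20, Cxcl1, Cxcl2 and Cxcl5 (5.54% of all genes), with -6.76 for Cxcl5 (SE 0.35, adjusted p = 1.78e-07) and -3.55 for Cxcl1 (SE 0.41, adjusted p = 5.45e-05) the largest. For Ccl2 the average was low through lung CD44high alone, at 0.18 and 0.16 TPM. Lung CD44low, at 58.9 and 102 TPM, lay above every LN library (8.98 to 36.5 TPM) and overlapped BM CD44low (56.3 and 61.9 TPM). Ccl27a fell under the fold threshold without LN CD44low replicate 1 (1.98) and with median-ratio scaling (1.88), which also moved the split over all genes from 1095 higher and 851 lower to 864 and 1030. Since Epcam was at 0 to 0.86 TPM in the lung lines and at 315 TPM or more in the others, organ and cell identity cannot be told apart in this comparison.

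Receptors for these ligands were mostly under the filter, and Cxcr4, the signalling receptor of Cxcl12, averaged 0.075 TPM over the 14 libraries. Of 24 receptor genes, 2 passed, Ackr3, a decoy receptor for Cxcl12, and Ccrl2, an atypical receptor that binds chemerin. Ackr3 was at 4.15 and 4.61 TPM in BM CD44high and 3.88 and 3.51 TPM in lung CD44low against 0.08 and 0 TPM in the MFP libraries, and was higher in both groups (limma log2 difference 2.37, adjusted p = 2.54e-05, and 2.17, adjusted p = 1.36e-05). In lung it was lower in CD44high, at 0.08 and 0.11 TPM (-2.10, adjusted p = 2.64e-05). Ccrl2 was at 10.1 and 6.49 TPM in BM CD44high and 5.38 and 2.68 TPM in LN CD44high against 0.10 and 0.24 TPM in MFP (2.96, adjusted p = 0.000121, and 2.05, adjusted p = 0.00134).

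Genes of pathways that can switch chemokine transcription on were counted in 3 further lists. The NF-kB list also holds inhibitors such as Nfkbia, so a count of its lower genes does not give the activity of the pathway. Of 15 NF-kB pathway genes, all tested, 1 or 2 were lower than in MFP in each LN and BM group (2.72% to 4.03% of all genes were). In lung CD44low 5 were lower and 1 higher (7.62% and 11.2% of all genes), and in lung CD44high 5 were lower (8.03%). Ikbke, a kinase of the pathway, was lower in all 6 groups (48.9 and 34.0 TPM in the MFP libraries, 0.18 to 4.92 TPM elsewhere). Nfkbia, the inhibitor that NF-kB itself induces, was at 226.9 and 249 TPM in the MFP libraries, 273 and 234 TPM in BM CD44high and 58.3 and 65.8 TPM in lung CD44low, with no call against MFP. Between the lung CD44high and CD44low lines, 1 of the 15 was lower, where 8.8% of all genes were, so the list did not exceed the background. This was Bcl3, at 0.43 and 1.09 TPM in lung CD44high and 13.8 and 13.5 TPM in lung CD44low (-3.08, SE 0.47, limma adjusted p = 0.000816).

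Among 14 cytokine genes that can induce chemokines, 7 were tested, and 1 or 2 were lower and at most 1 was higher than MFP in each group, where 2.72% to 8.03% of all genes were lower and 2.07% to 11.2% higher. Il1a was at 28.5 and 13.9 TPM in MFP and at 0.20 TPM or less elsewhere. Only the MFP libraries took it past the filter, so its 6 calls as lower than MFP are a description. Il6 was at 71.0 and 56.6 TPM in lung CD44low, where it was higher than in MFP (4.93, SE 0.63, limma adjusted p = 0.000167), and at 1.07 and 7.85 TPM in lung CD44high. Il33 was at 30.4 and 24.9 TPM in BM CD44low and 42.6 and 27.2 TPM in BM CD44high against 0.45 and 0.30 TPM in MFP, and was higher in both (4.38 and 4.67, SE 1.15, limma adjusted p = 0.0221 and 0.0147). Of 15 interferon response genes, 14 were tested and at most 1 was called in each direction against MFP, a share near those same backgrounds in the lung groups. Usp18 was lower in 4 of the 6 groups, and Isg15 was higher in BM CD44high (2.05, SE 0.57, limma adjusted p = 0.0242).

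The single-cell libraries showed how the same ligands were spread over cells. After filtering, lungH held 1236 cells with a median of 557 counts, lungL 348 cells with a median of 4011 and lymphH 2562 cells with a median of 585. With 1 library per line there was no test, and the 95% Poisson and exact binomial intervals given cover counting error only. Fibroblast markers summed to 22.1 counts per 10000 in lungL, 0.670 in lungH and 0.132 in lymphH, and epithelial markers to 0.878, 4.28 and 9.35. Chemokine ligands summed to 7.98 counts per 10000 in lungL (7.61 to 8.36), 3.55 in lungH (3.31 to 3.81) and 1.41 in lymphH (1.31 to 1.51). A count of any ligand was found in 59.2% of lungL cells, 20.8% of lungH cells and 12.2% of lymphH cells, with cells several times deeper in lungL than in the other 2 libraries. Of the 38 ligands, 21 had a count in some library and 17 had none. Ccl11 was at 0 in bulk and had 1 count in lungL.

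Cxcl12 led both lung libraries. It was at 4.61 counts per 10000 in lungL (4.33 to 4.90) and 3.05 in lungH (2.83 to 3.29), and had no count among 5287425 in lymphH, where 3 counts would be 0.00567 per 10000. In bulk the lung CD44low and CD44high means were 2104 ± 590.5 and 33.1 ± 4.38 TPM (SD, n = 2). The order was thus the same, with a far wider gap in bulk than in single cells. Cell cycle genes summed to 15.8 counts per 10000 in lungH, 4.64 in lungL and 16.4 in lymphH, against 4.5 to 72.0 TPM in bulk lung CD44high, 38.3 to 42.3 TPM in lung CD44low and 4621 to 4780 TPM in LN CD44high, so lungH stood near lymphH in these genes whereas bulk lung CD44high stood far below LN CD44high. Cxcl12 counts were found in 158 of 348 lungL cells (45.4%, 40.1 to 50.8) and 221 of 1236 lungH cells (17.9%, 15.8 to 20.1). Thinned to 1000 counts per cell, which kept 238 lungL and 222 lungH cells, the shares were 25.6% (20.2 to 31.7) and 21.6% (16.4 to 27.6), so the intervals overlapped. In lymphH it was 0 of 2562 cells, at a median depth near that of lungH, which limits the share of cells with a Cxcl12 count to 0.144% (exact binomial) and not the share that express it. The counts were spread over cells, with at most 2.64% and 3.11% of the library's Cxcl12 counts in any cell.

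Ccl2, Cxcl1 and, in part, Ccl7 of lungL came from few cells, whereas Cx3cl1 was in 59 cells with 5.45% of its counts in the top cell. Ccl2 was at 1.29 counts per 10000 (1.14 to 1.45) in 43 of 348 cells, and 125 of its 286 counts were in a single cell. The same cell held 72 of the 123 Cxcl1 counts and 28 of the 137 Ccl7 counts of the library, and all of its 6 Cxcl10 and 3 Ccl5 counts. With 15162 counts it was not the deepest, as 29 cells had more. Without the top cell of each gene, Ccl2 fell to 0.730 per 10000 (0.622 to 0.852), Cxcl1 from 0.554 to 0.231 (0.172 to 0.304) and Ccl7 from 0.617 to 0.494 (0.406 to 0.596). Ccl7 was found in 16 of the 43 cells with Ccl2 (37.2%) and in 5.57% of the others, but the former had a median of 10957 counts and the latter 3176. In lungH, Ccl2 had 1 count and Ccl7 none, where 3 counts would be 0.0136 per 10000, the same direction as the bulk lines.

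**Figure D5:**
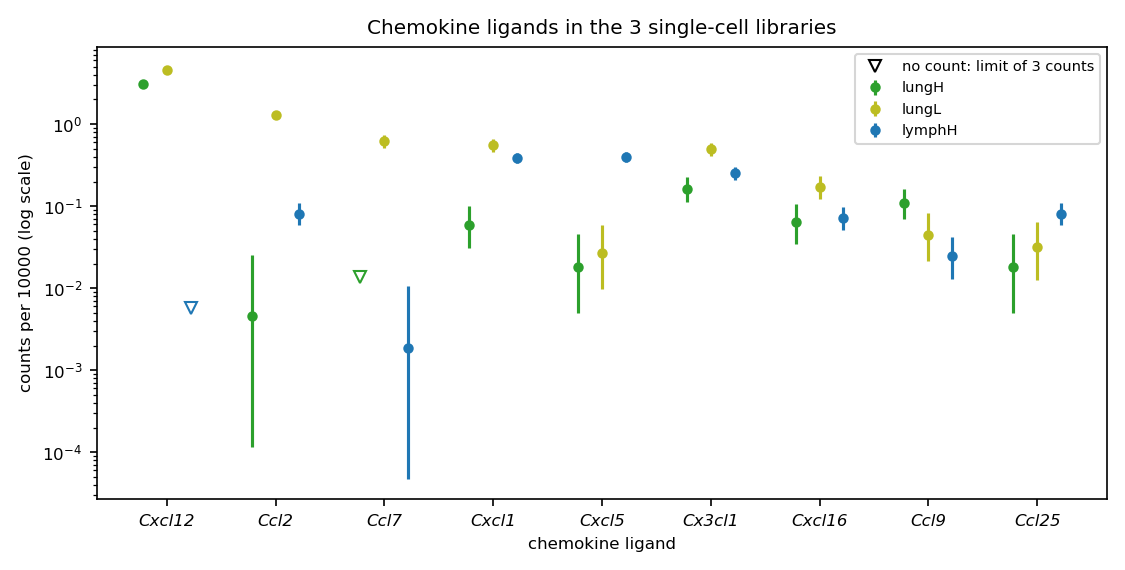
Counts per 10000 of 9 chemokine ligands in the lungH, lungL and lymphH single-cell libraries (1 each), on a log scale with 95% Poisson intervals, and open triangles at 3 counts where none was found. Cxcl12 is the highest in both lung libraries and absent from the counts of lymphH, and Ccl2 and Ccl7 lie in lungL far above lungH.

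In lymphH the leading ligands were those of the bulk LN CD44high lines. Cxcl5 was at 0.395 counts per 10000 (0.344 to 0.453) and Cxcl1 at 0.386 (0.335 to 0.443), followed by Cx3cl1 at 0.251 (0.211 to 0.298). Cxcl5 was found in 121 cells and Cxcl1 in 108 of 2562, and 26 cells held both. Cxcl5 was thus in 24.1% of the Cxcl1 cells and 3.87% of the others, whose median depths were 13620 and 580 counts. Cx3cl1 was also at 0.495 in lungL (0.407 to 0.597) and 0.163 in lungH (0.114 to 0.226). Ccl9 was at 0.109 in lungH (0.0696 to 0.162) and 0.0450 in lungL (0.0216 to 0.0828), on 24 and 10 counts with overlapping intervals, and was found in 1.38% of lungH and 1.72% of lungL cells, so no order was read from it. Ccl6, at 9.88 and 9.02 TPM in bulk lung CD44low, had no count in lungL, where 3 counts would be 0.0135 per 10000.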

How the data were processed

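Bulk libraries were made by the authors with a modified SMART-seq2 protocol, aligned with STAR to mm10 and quantified with RSEM on GENCODE v21, per the study's methods, and deposited as TPM values that sum to 1000000 in each of 14 libraries, so depth per library is unknown beyond the minimum that the methods state. All 55450 gene identifiers were found in GENCODE vM21, and symbols came from the deposited single-cell tables. TPM values were taken as log2(TPM + 1), the filter asked for 1 TPM or more in 2 or more libraries, and 7 group means were fitted with limma 3.58.1 (eBayes with trend, R 4.3.3) with 7 residual degrees of freedom. Fold changes on this scale understate low genes. The study's own test used edgeR on read counts, which were not used here. The procedure was tested on simulated data.

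Single-cell libraries (ddSeq, kallisto) were deposited by the authors as raw counts for each gene in each barcode. Cells with over 250 genes and under 10% of counts in 13 mt- genes were kept, which gave other cell numbers than the study's clustering. Doublets were not removed, free RNA was not estimated, and shared barcodes between libraries could not be counted because barcodes are running numbers. Intervals are 95%, and thinning was to 1000 counts.

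Members and gene lists were chosen with earlier results of these data known. Named are every ligand called in 1 of the 12 comparisons, with a group mean of at least 5 TPM or with 1 count per 10000, other ligands only where a paragraph accounts for its class, and up to 4 genes of each further list. Promoters are from RefSeq (GRCm38.p6). Windows exist for 27 of 38 members, of which 11 were tested. Cxcl5, Ccl2, Ccl5, Ccl7 and Cxcl16 have none in the table. Replicates are described as separate isolates, and no batch is given. All 14 libraries shared 1 estimate of the spread, since 2 per group give little on their own. Alternatives were a pseudocount of 0.1 TPM, no filter, a filter of 5 TPM, median-ratio scaling, a replicate block, only the groups compared, an unadjusted p, each library left out, other cell filters, per-cell means and thinning. Leaving out the lung libraries or the top cell of a gene was chosen after seeing the data.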

Additional observations from a re-analysis of the deposited data

Results flagged for a closer look

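The CD44 difference (CD44high minus CD44low) of the lung lines differed from that of the LN or BM lines, by an interaction term in limma over 15348 genes, for the ligands below. The lung difference was the lower one for each of them. Values are differences of 2 log2 differences, given only where neither lung group was at 0 in both libraries and the other organ expressed the gene.

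Against LN, the interaction was -7.05 for Ccl2 (limma adjusted p = 9.76e-05), -6.32 for Ccl7 (2.06e-05), -5.61 for Ccl9 (8.43e-05), -3.26 for Ccl20 (0.000929), -3.24 for Cxcl1 (0.0406) and -2.01 for Cxcl16 (0.0366). Against BM, it was -8.01 for Ccl7 (limma adjusted p = 3.85e-06), -7.31 for Ccl2 (8.02e-05), -5.45 for Cxcl1 (0.00336) and -3.66 for Ccl9 (0.00159). For Cxcl5, listed at 0 in lung CD44high, the adjusted p was 0.00108 against LN and 0.000528 against BM. For Ccl6, also at 0 there, it was 2.84e-05 and 4.31e-05, but only lung CD44low took this gene past the filter, so these calls follow from how it entered and are a description. For Cxcl2, also at 0 there, it was 0.0425 against BM. For Cxcl12, at or near 0 in LN and BM, it was 4.39e-05 and 4.5e-05. For Cxcl12 and Ccl6, at 0.59 TPM or less in every LN and BM library, the interaction only repeats the lung difference. For Ccl20, at 0.36 TPM or less in every lung library, it only repeats the LN difference (3.10), and for Cxcl16 and Cxcl2 the lung difference was the smaller one (-0.47 against 1.53 in LN for Cxcl16, and for Cxcl2 0.14 and 0.91 TPM in lung CD44low and 0 in lung CD44high, against 2.12 in BM). Epcam was at 0 to 0.86 TPM in the 4 lung libraries, so the organ and the identity of the cells cannot be told apart.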

How the results depend on the processing

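No called ligand changed sign in any alternative. Of 87 calls (a ligand in a comparison), 69 held in all 14 fits without 1 library and 18 were lost in at least 1. Requiring 5 TPM lost none of the 86 it tested (Ccl17 in BM CD44high against MFP was not tested there), the replicate block 1, median-ratio scaling 2, a pseudocount of 0.1 TPM 4, no filter on low TPM 7, and a fit to only the groups compared, which has fewer samples, 16. Without the lung libraries, 7 of 34 were lost. The number of ligands called moved by more than 1.5 times as follows. With only the groups compared it was 2 in LN CD44low against MFP, where the calls of Ccl2, Ccl5, Cxcl1 and Cx3cl1 were lost. In that setting it was 0 for CD44 in LN, CD44 in BM, and BM against LN. Without the lung libraries it was 1 for CD44 in LN, 0 for CD44 in BM, 1 for CD44 averaged over organs and 0 for BM against LN. With a pseudocount of 0.1 TPM it was 0 for CD44 in LN and 3 for CD44 over 3 organs. Median-ratio scaling gave 2 for CD44 in BM. An unadjusted p gave 3 for CD44 in BM and 2 for the BM against LN interaction. Over the fits without 1 library the count ran from 0 to 3 for CD44 in LN, 0 to 2 for CD44 in BM, 0 to 1 for CD44 over 3 organs, 0 to 3 for BM against LN, and 0 to 1 for the BM against LN interaction. The causes were not tested.

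The difference between replicate 1 and replicate 2 correlated between groups at only -0.194 to 0.168. Such values cannot show whether same-numbered lines came from the same mouse, and the labels do not settle it. With a replicate block, 2 ligands were called for CD44 in BM and Ccl9 was lost for CD44 in LN (limma adjusted p = 0.0551). The summed ligand level in lungL was 7.21 counts per 10000 over all barcodes and 6.88 as a mean of per-cell values, against 7.98. Among 16 values per setting for single ligands in a library, 11 shares moved on thinning (12.4% to 5.88% of lungL cells for Ccl2), and 9 levels moved with per-cell means, 5 without the top cell and 2 over all barcodes. For bulk, the study's methods state a minimum depth but not that of each library, so the precision of low TPM values could not be set. A single library per line limits the single-cell values to those libraries.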
